A study of Homo sapiens with 6 samples.

Results

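Among 101802 R-loop peaks of proliferating human fibroblasts, the peaks described here are the 9150 that lie at an end of a gene, recur in Ras-induced senescent cells and have no counterpart in quiescent cells. R-loops were mapped with MapR, in which catalytically inactive RNase H tethered to micrococcal nuclease cuts and releases chromatin around RNA-DNA hybrids and a GST-MNase fusion gives the background. The cells were IMR90, an established line of embryonic lung fibroblasts with the genotype WT, kept in DMEM with 10% serum at 2% O2. The proliferating group carried a control vector, the senescent group ectopic Ras from a construct that the labels do not name, and the quiescent group was under starvation. Of the 6 libraries, 1 for each enzyme in each state, the 3 RNase H-MNase peak lists were used; those of GST-MNase are not analysed here.

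A member is a proliferating peak of at most 2000 bp on chromosomes 1 to 22 or X that shares at least 1 bp with a senescent peak and none with a quiescent peak, and that has at least 1 bp within 1000 bp of either end of a protein-coding or lncRNA gene of RefSeq on GRCh38. The members were thus chosen by measured values, the overlaps between the 3 lists and the width in the proliferating list. Those values are a description of these 3 libraries, and no test was made on them. Of the 93421 proliferating peaks of this width 18313 lay at a gene end, 63.2% of which overlapped a senescent peak and 13.7% a quiescent one. The 9150 members are 50% of those gene-end peaks. Among proliferating peaks of at most 2000 bp anywhere, the same overlaps held for 41.3%, and among those away from gene ends for 39.2%. Once a senescent overlap was required, a quiescent overlap was missing for 79% of gene-end peaks and for 94.6% of peaks elsewhere. Gene-end peaks thus lacked a quiescent counterpart less often than other shared peaks, without matching on width or score. The members are compared below with 2428 gene-end peaks present in all 3 lists and with 6647 gene-end peaks of proliferating cells alone; a further 88 overlapped a quiescent peak and no senescent one.

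The lists differ in size, which bears on every absence. On these chromosomes the proliferating list held 101607 peaks over 85.2 Mb, the senescent list 85405 over 54.0 Mb and the quiescent list 9727 over 4.12 Mb. Read depth is unknown and each state has 1 library, so fewer R-loops, fewer reads and a lower signal over background in the quiescent library cannot be told apart, and no difference between states has a replicate check. The authors also gave each peak a score, in whole numbers from 10 upward on an unstated scale, which serves here only to rank peaks within a list.

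An R-loop forms when a transcript pairs with its template strand and leaves the other DNA strand single. They arise where RNA polymerase II is active, often over CpG-rich starts with more G than C on the non-template strand, and also where transcription ends. RNase H enzymes, helicases such as senataxin and aquarius, and the proteins that package and export RNA keep them in check, and R-loops that persist can block replication forks.

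Promoters under the highest members show what these regions look like. The windows are RefSeq sequences of GRCh38.p14 from 250 bases before to 50 after an annotated start, read in the direction of transcription, and the capitals mark the 50 bases after the start. The first 4 lie under members with the highest scores, the fifth under the member that ranked highest in both lists at once, and the last pair, shown for contrast, under high-scoring peaks found in all 3 lists.

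AGFG2 (chr7:100538953-100539252, plus strand): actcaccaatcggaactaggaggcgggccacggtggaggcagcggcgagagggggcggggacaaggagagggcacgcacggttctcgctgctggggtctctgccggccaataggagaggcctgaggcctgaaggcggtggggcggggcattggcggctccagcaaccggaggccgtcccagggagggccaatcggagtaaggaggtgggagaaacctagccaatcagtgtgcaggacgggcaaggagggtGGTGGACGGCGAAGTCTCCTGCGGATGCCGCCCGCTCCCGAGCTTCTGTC
OLA1 (chr2:174248483-174248782, minus strand): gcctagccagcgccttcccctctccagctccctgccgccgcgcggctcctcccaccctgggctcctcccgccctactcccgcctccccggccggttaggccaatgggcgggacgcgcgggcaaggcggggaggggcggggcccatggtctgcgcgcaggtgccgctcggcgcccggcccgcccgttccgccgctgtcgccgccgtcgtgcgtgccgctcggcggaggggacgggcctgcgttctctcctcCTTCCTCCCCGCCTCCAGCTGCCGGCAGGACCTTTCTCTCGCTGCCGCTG
MOB1A (chr2:74178265-74178564, minus strand): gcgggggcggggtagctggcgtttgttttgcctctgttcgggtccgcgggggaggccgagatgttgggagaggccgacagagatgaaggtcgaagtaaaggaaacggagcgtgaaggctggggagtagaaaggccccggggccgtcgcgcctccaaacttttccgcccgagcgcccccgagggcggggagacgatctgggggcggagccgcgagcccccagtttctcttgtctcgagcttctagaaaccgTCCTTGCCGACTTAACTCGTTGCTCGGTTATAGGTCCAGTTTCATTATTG
TMEM160 (chr19:47048575-47048874, minus strand): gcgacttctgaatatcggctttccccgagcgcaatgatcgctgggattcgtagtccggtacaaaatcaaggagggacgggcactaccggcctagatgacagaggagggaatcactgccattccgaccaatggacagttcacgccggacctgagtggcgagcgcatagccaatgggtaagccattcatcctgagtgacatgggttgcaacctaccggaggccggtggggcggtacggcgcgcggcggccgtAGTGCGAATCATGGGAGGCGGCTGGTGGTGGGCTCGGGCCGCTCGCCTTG
CCDC15 (chr11:124953952-124954251, plus strand): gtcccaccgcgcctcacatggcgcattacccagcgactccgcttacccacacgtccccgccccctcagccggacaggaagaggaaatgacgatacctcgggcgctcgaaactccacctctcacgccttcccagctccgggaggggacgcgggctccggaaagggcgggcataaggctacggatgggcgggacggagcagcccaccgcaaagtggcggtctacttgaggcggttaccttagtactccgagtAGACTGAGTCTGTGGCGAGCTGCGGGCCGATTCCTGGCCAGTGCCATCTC
EML2, peak in all 3 lists (chr19:45645314-45645613, minus strand): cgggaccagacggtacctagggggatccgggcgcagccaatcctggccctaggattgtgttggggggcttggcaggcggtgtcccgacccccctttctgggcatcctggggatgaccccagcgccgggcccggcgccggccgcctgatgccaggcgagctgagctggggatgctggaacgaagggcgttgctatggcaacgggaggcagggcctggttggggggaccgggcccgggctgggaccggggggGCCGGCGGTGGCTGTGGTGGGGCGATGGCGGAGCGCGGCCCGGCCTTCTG
DNM1L, peak in all 3 lists (chr12:32679051-32679350, plus strand): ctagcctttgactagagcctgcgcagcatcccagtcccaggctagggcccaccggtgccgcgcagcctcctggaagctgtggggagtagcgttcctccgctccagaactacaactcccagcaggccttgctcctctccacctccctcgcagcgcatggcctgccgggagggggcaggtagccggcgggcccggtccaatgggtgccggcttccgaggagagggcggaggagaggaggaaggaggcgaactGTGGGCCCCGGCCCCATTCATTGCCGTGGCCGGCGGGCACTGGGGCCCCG

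All of these windows are GC-rich. The member windows ran from 61.7% GC at TMEM160 to 77.3% at OLA1, and the windows of EML2 and DNM1L held 73.7% and 70%. CpG dinucleotides numbered 23 at AGFG2, 39 at OLA1, 29 at MOB1A, 28 at TMEM160 and 28 at CCDC15, against 26 and 21 in the contrasting pair. The bases just after the start did not share one strand bias. TMEM160 had 23 G and 12 C there and CCDC15 17 and 15, whereas OLA1 had 11 G and 24 C and AGFG2 17 and 18. The GC box GGGCGG, on either strand, was present in each of the 5 member windows and at DNM1L, but not at EML2.

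The highest member lay at the start of AGFG2, a relative of Arf GTPase-activating proteins. It spanned chr7:100538393-100539345 with a score of 134 in the proliferating list, its senescent partner was 781 bp wide with a score of 18, and the nearest quiescent peak was 6.23 kb away. At OLA1, which encodes an Obg-like ATPase, a proliferating peak of 1524 bp and score 127 met a senescent peak of 1350 bp and score 53, with no quiescent peak within 237 kb. MOB1A, whose product activates the LATS kinases of the Hippo pathway, had scores of 116 in the proliferating and 29 in the senescent list, the order in which pairs of scores are given from here on, and TMEM160 had 115 and 43. ABRAXAS2, a scaffold of the BRISC deubiquitinase, followed with 109 and 20. Scores of 108 and 23 were found at ZNF583 and 108 and 32 at ZNF627, both zinc finger genes on chromosome 19. OSBPL11, an oxysterol-binding protein relative, had 104 and 24, and ACBD6, which binds acyl-CoA, 102 and 31. All of these lay at starts; the remaining peak of the 10 highest was at the 3' end of the lncRNA LOC105371934, with 106 and 37. Being high in the proliferating list did not fix the rank in the senescent one, since AGFG2 and ABRAXAS2 had partners at 18 and 20 beside a median of 21 over all members.

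Members high in both lists were led by CCDC15, with a score of 99 and a partner of score 54 that at 1449 bp was wider than its own 1034 bp. GRK2, the kinase that shuts off G protein-coupled receptors, had 84 and 66, and EHD4, an ATPase of endocytic recycling, 74 and 59. OLA1 and TMEM160 belong to this group as well. The other 5 were ends of lncRNA genes, FUT8-AS1 (93 and 51), LOC124905122 (84 and 55), LOC105371381 (86 and 48), MUC12-AS1 (96 and 45) and LINC00537 (74 and 43). At FUT8-AS1 the partner had the same width as the member, 1127 bp, and a quiescent peak lay 0.519 kb away without touching it. Across all 9150 members the proliferating score and the highest partner score were weakly related (Spearman's rho 0.33, a description across peaks of 1 pair of libraries).

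The members were of middling width and score among gene-end peaks. Their median width was 1010 bp (195 to 2000) and their median score 30 (10 to 134). The peaks in all 3 lists had medians of 1503 bp and 54, and those of proliferating cells alone 441 bp and 18. The share of shared gene-end peaks that lacked a quiescent counterpart was 98.9% in the lowest of 5 groups by score and 47.4% in the highest, and 98.1% and 60.9% in the narrowest and widest of 5 groups by width. So even among the highest-scoring shared peaks nearly as many were missing from the quiescent list as were present in it. These are values of the lists that the rule used and carry no test.

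The peaks next to each threshold of the rule were as follows. TARBP1 and ABCF3, with peaks of 2000 bp and scores of 46 and 58, were just inside the width limit, and LENG8 with LENG9 (2001 bp, score 22) and F10 (2002 bp, 39) were just outside. At the distance limit CAMSAP3 (score 27) and LRRC15 (23) had peaks 999 bp from their ends, and the nearest peaks left out, on chromosomes 1, 10 and 22, scored 15, 41 and 24. A quiescent peak came within 32 bp of the member at PDZRN3-AS1 and within 34 bp of the one at JAK1, while the smallest overlaps with a quiescent peak among the peaks left out were 126 bp at HNRNPAB and 128 bp at ZNF615. Such near misses were few: 3 members had a quiescent peak within 100 bp and 229 (2.5%) within 1000 bp, and the median gap was 48.8 kb.

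In the senescent list the members' counterparts were mostly single and narrower. A single partner was found for 8501 members (92.9%), and the partners were narrower than the proliferating peak in 6634 (72.5%, Wilson interval 71.6 to 73.4). Their median width was 661.5 bp and the median of the width ratio, senescent to proliferating, was 0.717. The ratio was 1.32 in the narrowest of 5 groups of members (195 to 534 bp) and 0.56 in the widest (1548 to 2000 bp), while the partners' median width went from 461 to 992 bp. The groups were formed on the width that is also the denominator of the ratio, so its order across them is a description only. The peaks in all 3 lists had almost the same median ratio, 0.717, although 86.2% of their partners were narrower. For 5710 members (62.4%) the partners covered 50% or more of the peak, and for 8707 (95.2%) a partner itself lay at a gene end.

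**Figure D1:**
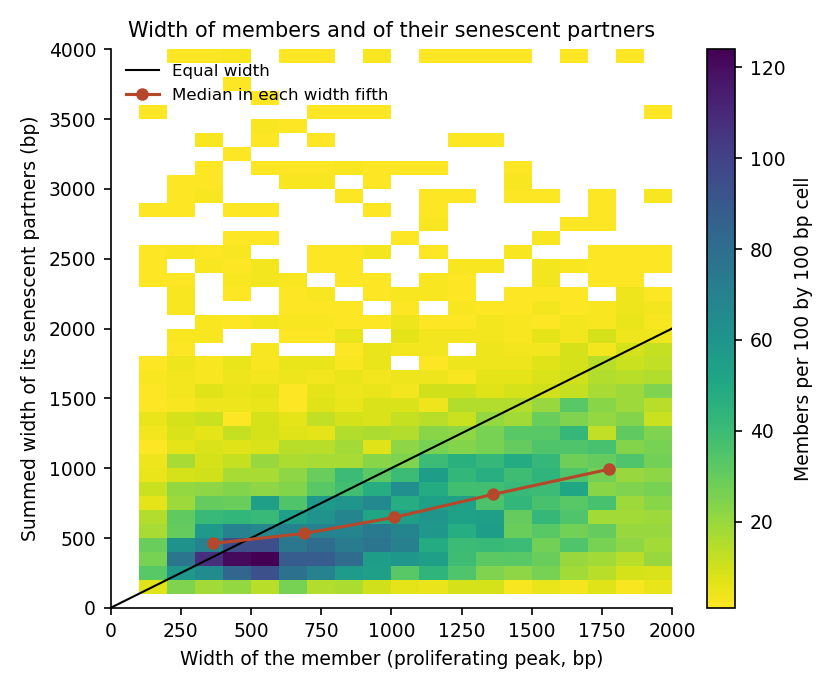
Width of each member in the proliferating list (horizontal, bp) against the summed width of its senescent partners (vertical, bp), as members per cell of 100 by 100 bp; 13 members with partners of 4000 bp or more are drawn in the top row. The red points, the partners' medians in 5 width groups, rise from 461 to 992 bp and lie under the line of equal width in all but the narrowest group.

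The extremes of this ratio were found at named genes. At the 3' end of RGS3, a regulator of G protein signalling, a member of 323 bp lay within a senescent peak of 5619 bp, 17.4 times as wide. At the start of PTH1R, the parathyroid hormone receptor gene, 304 bp met 3046 bp, and at SYT8 437 bp met 4512 bp. A senescent peak of 7125 bp ran over a member of 721 bp at the neighbouring ends of PPP1R14B and FKBP2, and one of 3355 bp over 342 bp at LOC105376860. At the other extreme, members of 1922 bp at ATF4, the transcription factor of the integrated stress response, of 1936 bp at USP39, a splicing gene, and of 1949 bp at CD99 had partners of 195, 195 and 197 bp. GPC1-AS1 (1934 and 195 bp) and SOCAR (1924 and 195 bp) completed the set. The width 195 bp is the smallest in both lists.

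Gene starts carried most members. The strand, and with it which end is the start, was known for genes with a RefSeq promoter sequence, which covered 7222 members, and 5424 of them (75.1%, 74.1 to 76.1) lay at a start. The remaining 1798 lay at a 3' end only. Among the peaks in all 3 lists 92.2% lay at a start and among those of proliferating cells alone 56.8%. The differences, members minus the others, were -17.1 percentage points (Newcombe interval -18.6 to -15.5) and 18.3 points (16.6 to 20.0), and both intervals cover counting error only. The share at starts also followed the score within the members, from 54.9% in the lowest of 5 score groups (752 of 1371) to 89.9% in the highest (1382 of 1538).

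Because the 3 classes differ in width and score, the comparison peaks were weighted to the members' distribution over 25 bins of width and score. The share at starts was then 85.6% for the peaks in all 3 lists and 73.0% for those of proliferating cells alone. The difference from the former shrank to -10.5 points (-15.1 to -4.23, with weights worth about 165 peaks), and that from the latter to 2.11 points (-0.726 to 5.11), an interval that includes 0. With the proliferating and senescent lists shortened to the length of the quiescent list 384 members were left, and the differences were -2.91 points (-7.38 to 1.09) and -2.07 points (-6.38 to 1.54).

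**Figure D2:**
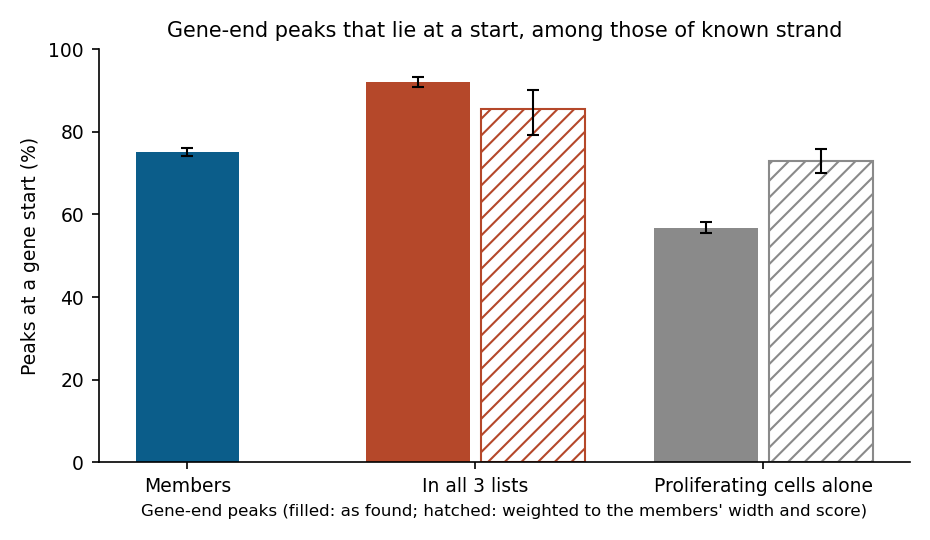
Share of gene-end peaks that lie at a gene start (vertical, %), among peaks at genes of known strand, for members, peaks in all 3 lists and peaks of proliferating cells alone; hatched bars are weighted to the members' width and score, and error bars are 95% intervals for counting error. Members stand at 75.1%; the weighted bar of proliferating cells alone comes to 73.0% and that of the peaks in all 3 lists to 85.6%.

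Start members and 3' end members differed in form. Those at a start had a median width of 1147 bp, a score of 35 and a width ratio of 0.677, and those at a 3' end alone 729.5 bp, 23 and 0.832. For the 3684 members with 1 start and no other gene end in reach, the median edges were at -426.5 and 701.5 bp, counted from the start into the gene. Among peaks of this kind the start itself lay under 64.0% of the members, 87% of 1131 peaks in all 3 lists and 36.3% of 2171 peaks of proliferating cells alone. Senescent partners were narrower on both sides, with median edges at -278.5 and 521.5 bp and 45.7% over the start. The medians of the centres were nevertheless alike, 140 bp into the gene for members and 139 bp for their partners. For 1475 members at a single 3' end the median edges were at -397 and 370 bp, positive beyond the end, and 26.4% lay over it. Starts of genes on both strands, as at divergent gene pairs, were within reach of 13.4% of members, 22.5% of the peaks in all 3 lists and 6.0% of those of proliferating cells alone. Neither these shares nor those of peaks over the start were weighted for width. In the same order the classes had median widths of 1010, 1503 and 441 bp, and a wider peak reaches more positions.

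**Figure D3:**
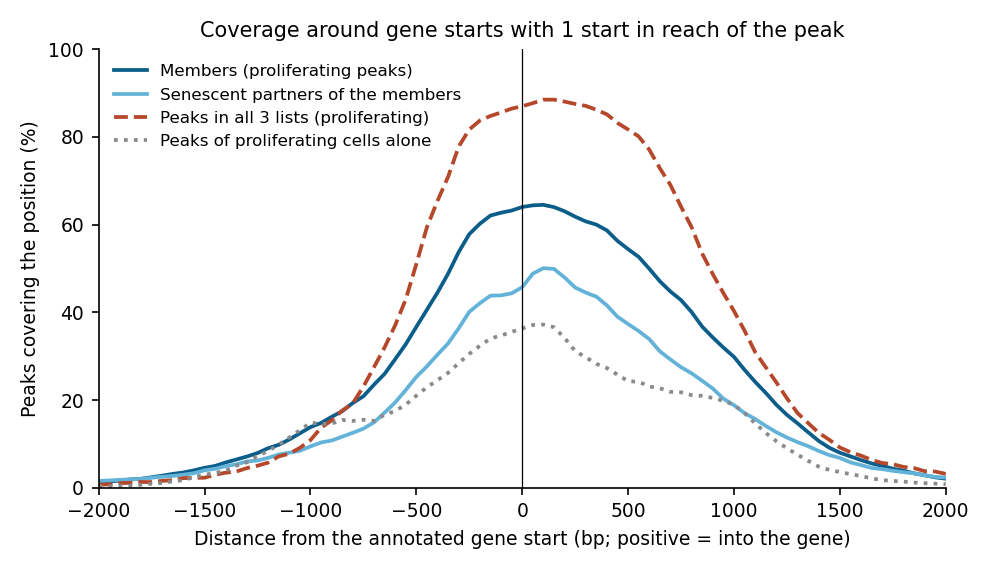
Percent of peaks that cover each position (vertical) by distance from an annotated gene start (horizontal, bp, positive into the gene), for members and their senescent partners and for the 2 comparison classes. The members' curve reaches 64.0% at the start itself, between the 87% of the peaks in all 3 lists and the 36.3% of those of proliferating cells alone, and the partners' curve is lower than the members' and centred at a similar place. The classes differ in width, and the curves are not weighted for it.

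Promoters under members were rich in CpG. Of 34960 promoter sequences 5589, from 4912 genes, lay under a member and under no gene-end peak in all 3 lists. Their median GC content was 63.7% (63.3 to 64.0), between 65.3% for 2601 promoters under a peak in all 3 lists and 60.3% for 1726 under a peak of proliferating cells alone, and above the 47% of 15004 promoters under no peak of any list. After the weighting for width and score the comparison medians were 64.0% and 61.7%. CpG-rich windows, with over 50% GC and a CpG count over 0.6 of that expected from the base content, made up 73.3% of the member promoters, 83.5% and 57.1% of the comparison promoters and 12.8% of those under no peak. The median of the observed-to-expected CpG ratio was 0.809 under members, 0.816 under peaks in all 3 lists and 0.739 under peaks of proliferating cells alone, but after the weighting the last came to 0.854 and so stood above the members, with 0.814 for the peaks in all 3 lists. GC skew of the 50 bases after the start, the excess of G over C as a share of both, had a median of 0.086 under members, 0.091 and 0.071 in the comparison classes and 0.037 under no peak. After the weighting the median skew was 0.083 in both comparison classes, close to that under members. Within the members the median GC content was 61.7% (60.7 to 62.7) in the lowest of 5 score groups and between 63.7% and 64.3% in the others. The observed-to-expected CpG ratio went from 0.414 in the lowest to 0.84 in the highest group and the skew from 0.026 to 0.111. Promoters of lncRNA genes under members were less GC-rich than those of protein-coding genes, with medians of 61.3% and 64.3%.

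**Figure D4:**
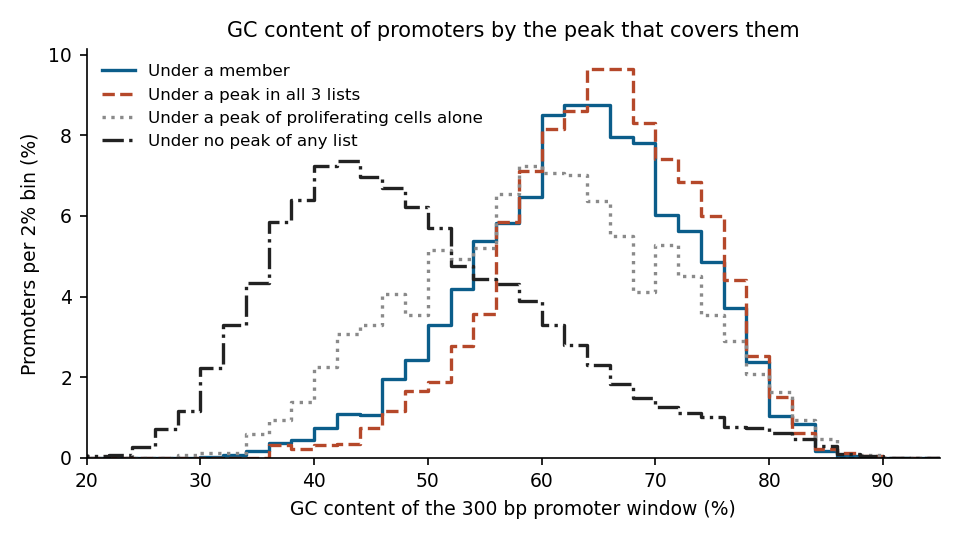
GC content of 300 bp promoter windows (horizontal, %) as percent of promoters per bin of 2% (vertical), by the peak that covers them. The median of promoters under members, 63.7%, is close to that of the peaks in all 3 lists, 65.3%, and promoters under no peak form a separate hump with a median of 47%.

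Short sequence motifs were counted on both strands of the same windows. The GC box GGGCGG, which Sp1 family factors bind, occurred in 63.3% of member promoters, 71.5% under peaks in all 3 lists, 52.3% under peaks of proliferating cells alone and 45.0% of all promoters. The ETS site CCGGAAG occurred in 19.1%, 22.8%, 13.6% and 10.3%. TATAAA, the core of the TATA box, was rarer under members (5.48%) than among all promoters (11.5%), with 3.65% and 8.75% in the comparison classes. The AP-1 site TGANTCA showed the same order, with 6.26% under members, 3.5% in all 3 lists and 8.98% in proliferating cells alone, and TTTGAA, the cell cycle genes homology region, with 9.86%, 7.69% and 12.5%. For these 5 motifs and for runs of GGGG (96.8%, 98% and 93.7%) the Newcombe intervals of both differences excluded 0. They did not for CCAAT, found in 34.2%, 34.3% and 33.7%, nor for the E-box CACGTG (9.07%, 9.73% and 8.34%). The E2F site was found in 2.58% of member promoters, 3.15% and 2.61% in the comparison classes and 1.64% of all promoters, and the NRF1 site in 2.2%, 3.42%, 1.51% and 1.24%. The YY1 site was found in 1.61% of member promoters, 2.0% and 1.33% in the comparison classes and 0.852% of all promoters. For the cAMP response element these shares were 3.29%, 2.73%, 3.42% and 1.85%, and for a variant of it 0.465%, 0.692%, 0.927% and 0.415%. Among the YY1 site, the response element and its variant, 1 interval excluded 0, for the variant against proliferating cells alone (-0.462 points, -1.05 to -0.046). Motifs rich in C and G are more frequent in GC-rich windows, the counts were not adjusted for that, and a match describes letters and not binding.

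By gene, 6659 of 19817 protein-coding genes (33.6%) and 3059 of 17904 lncRNA genes (17.1%) had a member at an end. Peaks in all 3 lists lay at an end of 12.6% and 4.24% of these genes, and peaks of proliferating cells alone at 20.2% and 14.4%. A member and no peak in all 3 lists were found at 6208 protein-coding genes (31.3%). Most protein-coding genes with a member, 5593, had 1 member, 935 had 2 and 131 had 3 or more. Of the 5275 with known strand 4230 had a member at the start, 1603 at the 3' end and 558 at both. A quiescent peak somewhere in the gene or within 1000 bp of it was present at 22.3% of genes with a member, against 34.4% of all protein-coding genes. The absence described here is thus of a peak at that spot and not always of the gene. Because the rule excludes a quiescent overlap at the member itself, a share under the 34.4% is partly built in. ADAM11, CAPN1, DNASE1L2 and FIBCD1 had 4 members each. At CAPN1, which encodes the calcium-dependent protease calpain 1, the start carried peaks of scores 79 and 49 with partners of 29 and 72, and the 3' end peaks of 22 and 17 with partners of 16 and 28. The second of these partners, at 72, is the highest of any member. DNASE1L2, a short nuclease gene, had scores of 15, 52, 21 and 24 along its length.

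Genes of 16 lists, chosen with earlier results of these data known, were looked up, and their shares are read against the 33.6% of all protein-coding genes. Factors of R-loop resolution and RNA export had a member in 20 of 39 (51.3%, 36.2 to 66.1). NUP98, a nucleoporin (scores 50 and 32), AQR, the helicase aquarius (49 and 39), DDX41, a helicase (53 and 25), and SRSF1, a splicing factor (64 and 23), ranked highest. RNASEH1 (50 and 15) and RNASEH2A (50 and 15), which encode the RNase H enzymes themselves, also had a member at the start. So did THOC2 (30 and 12) and THOC5 (33 and 24) of the export complex THO and XRN2 (54 and 18), a nuclease of transcription termination. These 5 were picked out after their values were seen. All of their partners but that of THOC5 scored under the median of 21 over all members. Of the 19 with known strand 16 had the member at the start, close to the 4230 of 5275 over all protein-coding genes. Partners were narrower in 16 of 20, beside 72.5% of all members. A peak in all 3 lists lay at an end of 15.4% of the genes in this list, against 12.6% of all protein-coding genes. For peaks of proliferating cells alone these shares were 20.5% and 20.2%. XPO1, the nuclear export receptor, and DDX1, an RNA helicase, which the title of the series names, had no member; each had 1 gene-end peak, at the start, and it was present in all 3 lists. At XPO1 the peak was 1763 bp wide with a score of 80 in proliferating cells, 1038 bp with 18 in senescent and 410 bp with 33 in quiescent cells. At DDX1 it was 1069 bp with 77, 1114 bp with 26 and 669 bp with 16. The list's share was 15.4% against a background of 18.6% when 50% of both peaks had to overlap, and 0 against 1.83% with lists of equal length.

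Genes of DNA repair by homologous recombination and of the Fanconi pathway had a member in 15 of 32 (46.9%, 30.9 to 63.6), at the start in 14 of 15. A peak in all 3 lists lay at an end of 25% of these genes, against 12.6% of all protein-coding genes. For peaks of proliferating cells alone these shares were 12.5% and 20.2%. This list was thus above the background for peaks kept in quiescence as well as for members. RAD54L, a motor of strand exchange, had a proliferating peak of 1916 bp and score 72 and a senescent partner of 447 bp and score 58. FANCA (78 and 33), the helicase gene BRIP1 (50 and 26) and FANCG (38 and 30) followed. The partner was narrower in 15 of 15, beside 72.5% of all members; these members had a median width of 1390 bp, and members of 1176 to 1547 bp had a median ratio of 0.602 in general. DNA replication genes and E2F targets had one in 15 of 41 (36.6%), near the background. Peaks in all 3 lists lay at an end of 9.76% of these genes and peaks of proliferating cells alone at 29.3%, against 12.6% and 20.2%. Proliferating and senescent widths were 1423 and 252 bp at MCM6, a subunit of the replicative helicase, and 1924 and 649 bp at FEN1, the flap endonuclease gene. They were 1646 and 1024 bp at CDT1, which licenses origins, and 1139 and 471 bp at RFC1, of the clamp loader. In this list too the partner was narrower in 15 of 15, beside 72.5% of all members. Its median width was 1423 bp and its median ratio 0.431, beside 0.602 for members of 1176 to 1547 bp in general. Mitosis genes had a member in 17 of 35 (48.6%, 33.0 to 64.4). Peaks in all 3 lists and peaks of proliferating cells alone each lay at an end of 17.1% of the mitosis genes. CCNB2, a B-type cyclin, had scores of 73 and 28, CDK1, the mitotic kinase, 50 and 28, FOXM1, a transcription factor of G2 and mitosis, 78 and 28, and CENPA, the centromeric histone, 45 and 28. These 4 had no quiescent peak in the gene or within 1000 bp of it. That absence is partly built in, since the rule excludes a quiescent overlap at their members. Over the whole list 13 of 35 (37.1%) had a quiescent peak there, near the 34.4% of all protein-coding genes.

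In 5 lists of basic metabolism and gene expression the share with a member was above 33.6%. Respiratory chain genes had a member in 37 of 76 (48.7%, 37.8 to 59.7), 26 of 29 with known strand at the start, led by NDUFB4 (65 and 33), NDUFS8 (52 and 56), NDUFA7 (58 and 29) and NDUFV2 (79 and 28), all subunits of complex I. Proteasome genes had one in 17 of 36 (47.2%), with PSMD8 (55 and 32), PSMA5 (48 and 32), PSMD4 (47 and 44) and PSME3 (46 and 26) ranked highest. Ribosomal protein genes had one in 34 of 79 (43.0%), with RPL27 at 68 and 33, RPS7 at 38 and 29, RPL5 at 52 and 23 and RPL9 at 65 and 23. Splicing factors reached 22 of 51 (43.1%), and HNRNPL (63 and 31), SRSF11 (47 and 27), U2AF2 (45 and 24) and SRSF1 ranked highest. Lysosome and autophagy genes reached 19 of 48 (39.6%), among them ATG3 (64 and 42) and BECN1 (51 and 42), which act in autophagosome formation, NPC1 (54 and 26), the lysosomal cholesterol transporter, and ULK2 (48 and 26). The respiratory chain interval lay above 33.6%, and the other 4 included it. The share was below the background for splicing factors when 50% of both peaks had to overlap (15.7% against 18.6%) and for ribosomal proteins with lists of equal length (1.27% against 1.83%). In the order given, peaks in all 3 lists lay at an end of 17.1%, 22.2%, 19.0%, 13.7% and 18.8% of these genes. All were above the 12.6% of all protein-coding genes, though splicing factors, at 7 of 51, only slightly. No intervals were computed for these shares. In the other 4 lists members were thus not the only class that stood above the background. Shares for peaks of proliferating cells alone were 18.4%, 22.2%, 39.2%, 23.5% and 27.1%, against 20.2%.

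Genes tied to the states compared were mixed. The senescence-associated secretory phenotype, the cytokines and proteases that senescent cells release, had a member in 18 of 43 (41.9%, 28.4 to 56.7), but among peaks from the median score of each list upward the share was 18.6%, below a background of 23.8%. CXCL6, a neutrophil chemokine, had 52 and 34, the membrane protease gene MMP14 64 and 28, the chemokine genes CCL20 35 and 30 and CXCL1 33 and 23. CDK inhibitors and p53 targets had one in 10 of 30 (33.3%), with BAX, the pro-apoptotic gene, at 53 and 55, FDXR at 47 and 30, ZMAT3 at 47 and 28 and CDKN1C, the p57 gene, at 32 and 20. A quiescent peak in the gene or within 1000 bp was present at 21 of these 30 genes (70%), against 34.4% of all protein-coding genes. Peaks in all 3 lists lay at an end of 23.3%, against 12.6%, and BAX was among these genes. The nearest quiescent peak was 0.847 kb from the member at BAX and 1.66 kb from that at CDKN1C. Quiescence and FOXO genes had a member in 12 of 34 (35.3%). In this list E2F4 (46 and 30) and RBL2 (41 and 27), which form the repressor complex of resting cells, LIN9 (62 and 20), a DREAM and MuvB subunit, and FOXO1 (36 and 36) had no quiescent peak in the gene or within 1000 bp. The rule excludes a quiescent overlap at their members, so this absence is partly built in. Over the whole list 16 of 34 genes (47.1%) had a quiescent peak there, against 34.4% of all protein-coding genes. Of the nucleic acid sensing and interferon genes 15 of 40 had a member (37.5%), with IFNAR2 at 67 and 33, IFNAR1, its partner in the type I interferon receptor, at 54 and 28, ISG15 at 49 and 34 and DDX41 as above.

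Matrix and immediate early genes had the lowest shares of the 16 lists. Fibroblast matrix and cytoskeleton genes had one in 8 of 43 (18.6%, 9.74 to 32.6), among them the proteoglycan gene BGN (46 and 26), S100A4 (32 and 23), THBS2 (31 and 32) and COL6A3 (25 and 30). Immediate early and MAPK feedback genes had one in 10 of 42 (23.8%, 13.5 to 38.5, an interval that includes 33.6%), with ETV4 at 49 and 27, DUSP6 at 33 and 23, JUND at 54 and 21 and NR4A1 at 32 and 22; all 4 had a quiescent peak elsewhere in the gene or within 1000 bp. Proliferating peaks over 2000 bp, which the rule leaves out, lay at an end of 32 of the 43 matrix genes (74.4%) and of 34 of the 42 immediate early genes (81.0%), against 30.5% of all protein-coding genes. Without the width limit the shares with a member were 44.2% and 50%, against a background of 44.2%, and with a window of 3000 bp that of the matrix genes was 53.5% against 45.2%, above the background. A quiescent peak in or near the gene was also frequent in both lists, at 67.4% and 59.5%. Markers of other cell types had a member in 15 of 34 (44.1%, 28.9 to 60.6), including MBP (37 and 36), SFTPB (37 and 24), APOA1 (32 and 30) and INS (32 and 25). Their members were narrow, with a median of 579 bp, and the median ratio to their partners was 1.5. Peaks map R-loops and not expression: of 12 fibroblast markers 12 had a proliferating peak in the gene or within 1000 bp, as did 5 of 5 epithelial, 3 of 3 endothelial and 4 of 4 immune markers. Most genes had such a peak, 16532 of all 19817 protein-coding genes. A quiescent peak was found at 6 of the 12, 3 of the 5, 0 of the 3 and 0 of the 4, against 34.4% of all protein-coding genes. The labelled cell type was not checked further from these loci.

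**Figure D5:**
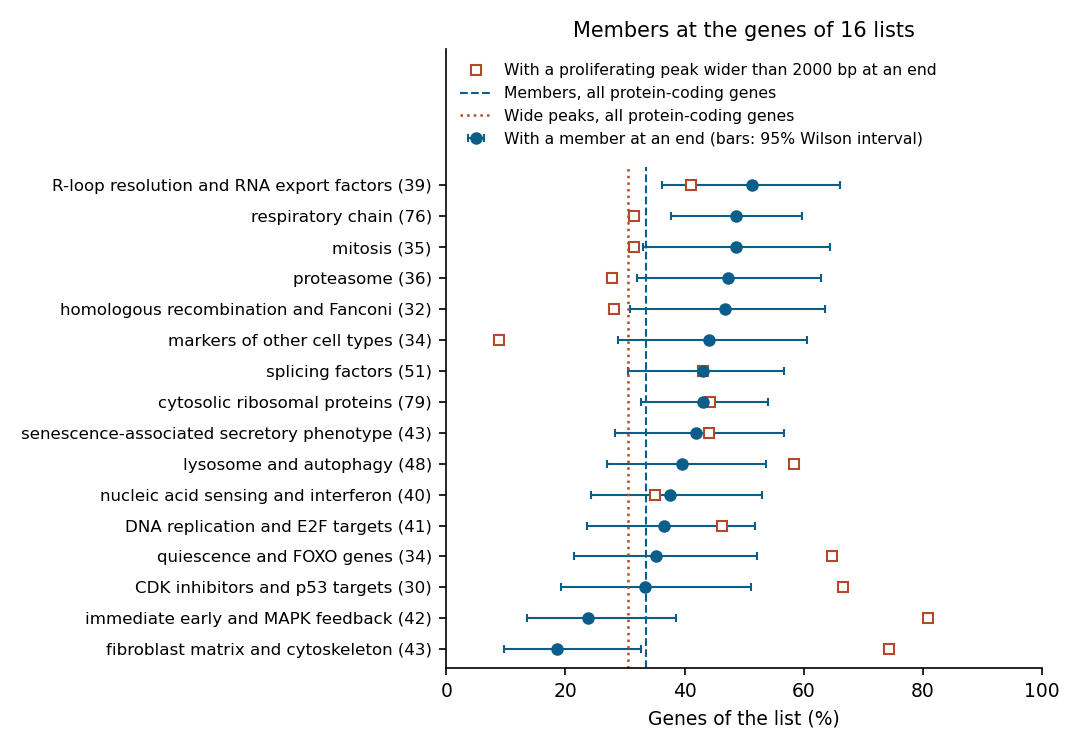
Share of the genes of each list (horizontal, %) with a member at an end (filled circles, bars for 95% Wilson intervals) and with a proliferating peak over 2000 bp at an end (open squares); numbers in parentheses are the genes in each list, and the dashed and dotted lines are the shares over all protein-coding genes, 33.6% and 30.5%. R-loop factors stand highest at 51.3% and matrix genes lowest at 18.6%, and in the matrix and immediate early lists the wide peaks stand at 74.4% and 81.0%.

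Small RNA genes lay under a few members. A tRNA gene was under 24 members (0.262%, 0.176 to 0.39) that held 30 of 429 tRNA genes, against 2 of the peaks in all 3 lists (0.0824%) and 6 of those of proliferating cells alone (0.0903%). Widths differ between the classes, and the intervals overlap. A snoRNA gene was under 7 members (0.0765%), 2 of the peaks in all 3 lists (0.0824%) and 5 of those of proliferating cells alone (0.0752%), nearly equal shares. Genes of spliceosomal RNAs lay under 7 members (0.0765%, 0.0371 to 0.158) and under none of the comparison peaks. There 0 of 2428 and 0 of 6647 allow shares of up to 0.158% and 0.0578% (upper Wilson limits), so these intervals overlap too. The spliceosomal RNA genes were RNU11, RNU6-1, RNU6-9, RNU2-63P, RNVU1-2A, RNVU1-28 and RNVU1-6, with scores of 21 to 59 in the proliferating list and partners of 13 to 36. RNU6-1 is a U6 and RNU11 a minor spliceosome gene, and members of such families have near-identical copies, so the placement of their reads is uncertain. MIR34B and MIR34C, microRNA genes that p53 induces, share 1 member on chromosome 11 of 974 bp with scores of 34 and 23. These small RNA genes were picked out after their values were seen.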

How the data were processed

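Peak lists of 3 MapR libraries were used, with 1 library per state. The submitters' processing notes name GRCh38, MACS2 2.2.7.1, FastQC 0.11.9 and Bowtie2 2.4.5, without settings or a control library. The deposited lists give positions and a score from the authors, whose scale is not stated. Depth is unknown. Without replicates no p-value was computed; 95% Wilson and Newcombe intervals, and order-statistic intervals of medians, cover counting error only.

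Overlaps, classes and weights were computed in Python 3.11.15 with pandas 2.3.3 and numpy 2.4.6. On simulated peaks 4000 of 4000 were put in their class, and the member count equalled that of bedtools 2.31.1. Genes came from RefSeq (GRCh38.p14), with strand taken from its promoter sequences, none of which lay on chromosome 8; genes without one count as of unknown strand. A start is the 5' boundary of the annotated gene. Promoters were classed by overlap in a fixed order, and the extent of coverage was not compared. A promoter touched by a gene-end peak in all 3 lists took that class. Otherwise it counted under members if a member touched it, and only then under peaks of proliferating cells alone. Promoters touched by both a member and a peak in all 3 lists are thus not counted under members. Peaks of a class were weighted to the members over 5 width by 5 score bins.

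The members and lists were chosen with earlier results of these data known. Named were the 10 highest members by proliferating score, the 10 best by the worse of their ranks in both lists, the 5 genes with most members, up to 4 genes of each list by that rank, the 5 highest and lowest width ratios among members of at least 300 bp, and peaks next to each threshold, chromosome 8 aside. Some genes that this rule takes are not reported here. Where a gene has several members, its highest-ranked one is given, and partner widths are summed.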

Additional observations from a re-analysis of the deposited data

How the results depend on the processing

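With 9150 members and 6659 protein-coding genes as the values given, the members numbered 5435 among higher-scoring peaks (from the median score of each list upward), 4707 when 50% of both peaks had to overlap, 14282 with a window of 3000 bp and 384 with lists as short as the quiescent one; in the second and last of these settings 3680 and 362 genes had a member. The members' share at starts, 75.1%, was 83.7% among the higher-scoring peaks, 76.5% with the 50% overlap, 78.7% and 71.0% with windows of 500 and 3000 bp, 76.3% with protein-coding genes alone, 78% without the width limit, 89.0% with short lists and 72.2% for peaks at an end of exactly 1 gene, a setting added after the data were seen.

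Members minus peaks in all 3 lists, -17.1 points at starts, came to -7.76 among higher-scoring peaks, -14.9 with a window of 500 bp, -2.91 with short lists, -10.5 after weighting and -18.6 at ends of exactly 1 gene. Members minus peaks of proliferating cells alone, 18.3 points, came to 9.73 among higher-scoring peaks, 12.8 with the 50% overlap, 20.1 and 8.87 with windows of 500 and 3000 bp, 20.5 with protein-coding genes alone, 20.8 without the width limit and 2.11 after weighting; with short lists its sign turned, to -2.07 points.

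The median promoter GC of members, 63.7%, was 64.3% among higher-scoring peaks and with protein-coding genes alone and 64.7% without the width limit. Its difference from peaks in all 3 lists, -1.67 points, was -1.0 with protein-coding genes alone, -2.67 without the width limit and with short lists, and -0.33 after weighting. That from peaks of proliferating cells alone, 3.33 points, was 1.67 among higher-scoring peaks, 1.0 with the 50% overlap, 4.33 without the width limit, 0 with short lists and 2.0 after weighting. With 1 promoter per gene, also added after the data were seen, these values stayed within their intervals.

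The median width ratio, 0.717, was 0.697 among higher-scoring peaks, 0.827 with the 50% overlap, 0.691 and 0.763 with windows of 500 and 3000 bp, 0.704 with protein-coding genes alone, 0.668 without the width limit and 0.706 with short lists. Leaving out members with a quiescent peak within 1000 bp moved none of these values out of its interval. Shares of homologous recombination, respiratory chain, proteasome and lysosome genes stayed above the background in 8 of 8 alternatives. The setting with protein-coding genes alone could not differ, since the lists and their background hold only such genes. With short lists these shares rested on 2 of 32, 2 of 76, 1 of 36 and 2 of 48 genes. The other 12 lists changed sides in at least 1 alternative. With the 50% overlap (background 18.6%) these were R-loop factors (15.4%), replication (12.2%), quiescence and FOXO (14.7%), splicing (15.7%) and nucleic acid sensing genes (15%), and p53 targets stood above the background with windows of 3000 bp (53.3% against 45.2%). Of the 18 members named for their scores 12 to 18 remained members, fewest with protein-coding genes alone. The causes of these shifts were not tested. No paired analysis was possible because each state has 1 library and the labels give no replicate numbers. Unknown depth and the short quiescent list limit every absence described.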

Other observations

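The members were spread over all chromosomes searched. Their share of gene-end peaks of at most 2000 bp ran from 46.5% on chromosome 5 (369 of 793) to 57.5% on chromosome 18 (149 of 259). A further 2443 proliferating peaks at gene ends were wider than 2000 bp and met the rest of the rule. The members' senescent partners were 9635 distinct peaks, so some members had several partners. MicroRNA genes lay under 31 members (0.339%, 0.239 to 0.481), under 19 of the peaks in all 3 lists (0.783%, 0.502 to 1.22) and under 18 of the peaks of proliferating cells alone (0.271%, 0.171 to 0.428), values that are not matched on width.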
